A study of Mus musculus with 6 samples.

Results

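The genes described here are 10 enzymes of prostanoid synthesis and breakdown, chosen by name from the 24063 gene symbols in the data. They are both cyclooxygenases (Ptgs1, Ptgs2), the prostaglandin E synthases (Ptges, Ptges2, Ptges3), the prostaglandin D synthases (Ptgds, Hpgds), the prostacyclin synthase (Ptgis), the thromboxane synthase (Tbxas1) and the breakdown enzyme (Hpgd). All 10 were represented by 1 RefSeq transcript, and all 10 had more than 3 counts in every library and passed the filter on low counts. The smallest count was 11, for Ptgds in SA tumors.

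Prostanoids are short-lived lipid signals made from arachidonic acid. A cyclooxygenase, encoded by Ptgs1 (Cox1) or Ptgs2 (Cox2), turns arachidonic acid into prostaglandin H, and a terminal synthase then turns that intermediate into a prostaglandin, prostacyclin or thromboxane. The enzyme encoded by Hpgd inactivates prostaglandins by oxidation. In squamous epithelium, Cox2 is low at rest and is induced by wounding and inflammation.

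RNA was sequenced from penile tumors of 3 SA mice (PB-Cre+ Smad4L/L ApcL/L) and from normal penile epithelium of 3 wild-type (WT) C57BL/6 mice, all males of 5 months. In SA mice, Cre is driven by an androgen-responsive probasin promoter that is active in the penile epithelium, and deletion is directed to those cells, not to stroma or immune cells. The tumors arose without a carcinogen, and the WT mice carry neither Cre nor floxed alleles, so that genotype, tumor state and any difference in strain background cannot be told apart. Replicates are separately labelled samples, and the p-values measure the spread between them.

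Libraries held between 23828283 and 110509147 counts over 1 row per gene, and SA replicate 3 held 4.42 times the median count of the other libraries. A count of 3, taken as the smallest level that the depth can show, equalled between 0.0244 and 0.137 CPM (counts scaled to a common library size by TMM), which covers counting error only. Smad4 was at 36.6, 36.1 and 46.1 CPM in SA tumors and at 61.2, 69.7 and 72.5 in WT penises. Apc was at 253, 194 and 197 CPM in SA tumors and at 62.5, 85.3 and 91.1 in WT penises. These counts run over the whole transcript, including exons outside the floxed part, so that they do not check the deletion. Epithelial markers were abundant in all 6 libraries, with Krt14, Dsp and Krt5 leading. The WT samples, labelled as epithelium, also held smooth muscle markers at a summed level of 1584 to 2111 CPM.

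Promoters of the cyclooxygenase genes, of which Ptgs2 alone passed the test, and of the prostaglandin D synthase genes, which moved in opposite directions, are shown here with that of Hpgd. RefSeq windows on GRCm38.p6, the build of mm10, run from 250 bases before the annotated start to 30 bases after it, and 9 of the 10 genes had one. For Ptgs1, Hpgds, Ptgds, Ptges and Tbxas1 this start lies inside the span of the gene in the GENCODE annotation, which is the span given with each gene here. Ptgs2 (plus strand, chr1:150099781-150100060), Ptgs1 (plus strand, chr2:36230176-36230455), Hpgds (minus strand, chr6:65144701-65144980), Ptgds (minus strand, chr2:25469720-25469999) and Hpgd (plus strand, chr8:56294302-56294581) are written 5′ to 3′ along the gene, with motif matches in capitals.
Ptgs2: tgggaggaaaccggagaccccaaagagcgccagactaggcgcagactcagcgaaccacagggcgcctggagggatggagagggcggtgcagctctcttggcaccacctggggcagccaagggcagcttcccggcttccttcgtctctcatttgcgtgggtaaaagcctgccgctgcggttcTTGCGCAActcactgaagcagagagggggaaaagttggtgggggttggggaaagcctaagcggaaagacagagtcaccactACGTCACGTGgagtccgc
Ptgs1: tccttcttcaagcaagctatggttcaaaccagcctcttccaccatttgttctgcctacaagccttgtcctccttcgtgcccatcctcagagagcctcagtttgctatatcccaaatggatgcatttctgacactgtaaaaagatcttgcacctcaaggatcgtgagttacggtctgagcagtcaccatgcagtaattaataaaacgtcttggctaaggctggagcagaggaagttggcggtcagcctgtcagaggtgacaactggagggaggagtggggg
Hpgds: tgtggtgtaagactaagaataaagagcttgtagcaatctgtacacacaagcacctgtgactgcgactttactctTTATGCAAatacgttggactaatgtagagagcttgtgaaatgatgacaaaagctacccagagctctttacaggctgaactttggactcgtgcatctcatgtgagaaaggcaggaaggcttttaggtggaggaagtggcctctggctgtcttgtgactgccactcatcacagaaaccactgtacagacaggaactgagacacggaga
Ptgds: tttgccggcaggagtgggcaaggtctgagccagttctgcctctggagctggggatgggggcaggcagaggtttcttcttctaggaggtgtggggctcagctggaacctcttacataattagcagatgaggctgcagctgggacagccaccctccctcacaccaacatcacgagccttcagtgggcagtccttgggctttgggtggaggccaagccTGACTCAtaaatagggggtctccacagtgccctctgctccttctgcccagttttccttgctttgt
Hpgd: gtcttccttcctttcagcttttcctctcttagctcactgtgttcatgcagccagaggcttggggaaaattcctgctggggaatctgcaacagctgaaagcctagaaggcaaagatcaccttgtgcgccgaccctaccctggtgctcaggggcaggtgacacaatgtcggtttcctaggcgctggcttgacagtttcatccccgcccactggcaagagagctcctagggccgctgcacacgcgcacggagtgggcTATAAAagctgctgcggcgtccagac

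Both strands were searched for a TATA box (TATAAA), an E-box (CACGTG), a cAMP response element core (ACGTCA), a C/EBP motif (TTGCNNAA), an AP-1 motif (TGANTCA) and 4 TCF/LEF spellings (CTTTGAA or CTTTGAT, and CTTTGTT or CTTTGTA). The Ptgs2 window held a C/EBP match at -69 to -62, and a cAMP response element core at +13 to +18 that overlapped an E-box at +17 to +22. It was the 1 window of the 9 with the cAMP response element core, which 7.26% of all 32851 RefSeq windows of that length held, against 6.79% for the E-box and 10.4% for the C/EBP motif. The Ptgs1 window held none of these letters. Hpgds had a C/EBP match at -176 to -169, Ptgds an AP-1 match at -35 to -29 (7.46% of all windows) and Hpgd a TATA box at +5 to +10 (13.1%). TCF/LEF letters, which 16.1% of all windows held, were found in the Tbxas1 window and in no other of the 9. These matches describe the letters of the windows, and binding was not measured.

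The comparison of SA tumors with WT penises asks which enzymes of the route differ between normal and cancerous penis. Ptgs2 and Hpgds were higher in SA tumors, and Hpgd, Ptgis and Ptgds were lower. These 5 of the 10 genes passed an adjusted p-value of 0.01 in edgeR's quasi-likelihood F-test, against 37.6% of all 16336 genes tested. By direction, 2 of the 10 rose, against a background of 20.1%, and 3 fell, against 17.5%. With library totals in place of TMM, 32.1% of all genes rose and 11.1% fell, and 4 and 3 of the 10 did. At an adjusted p of 0.05, a threshold added after seeing the data, 3 of the 10 rose, against 28.2%, and 4 fell, against 25.2%. All 5 also passed the fold-change threshold of 2 on the log2 scale in size, which with the adjusted p-value was met by 9.41% of all genes upward and by 3.59% downward. The groups did not overlap in 7 of the 10 genes, against 63.4% of all genes. The median log2 fold change was -0.04 over the 10 genes and 0.03 over all genes.

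**Figure D1:**
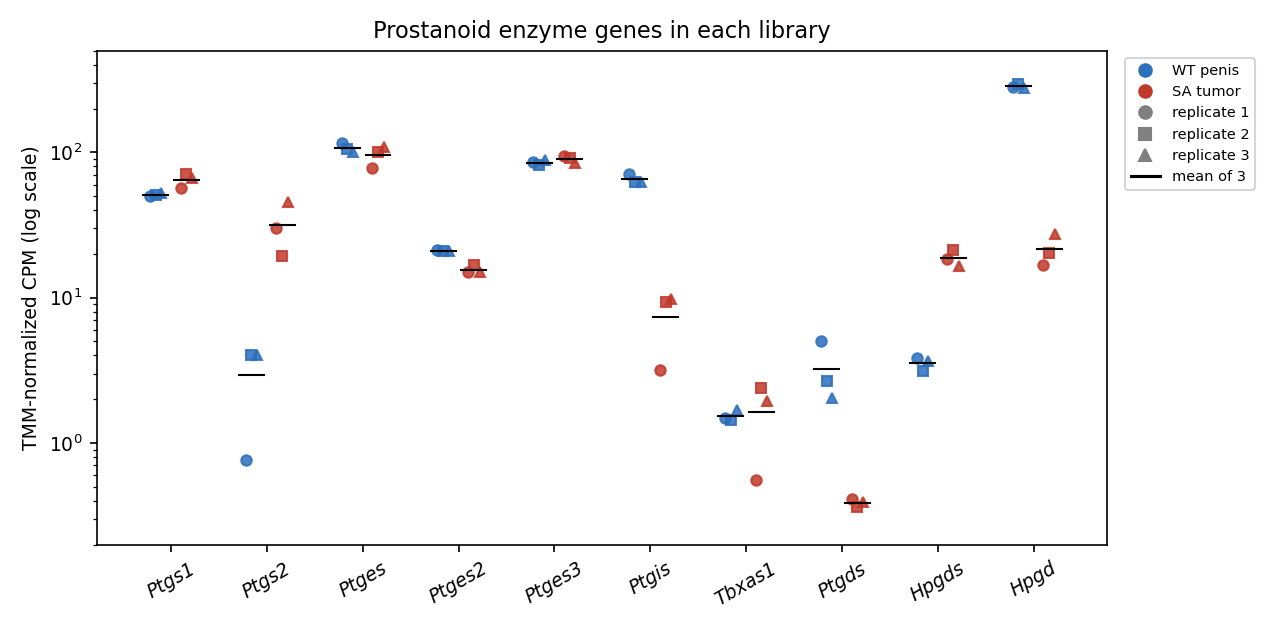
TMM-normalized CPM (log axis) of the 10 prostanoid enzyme genes in each of the 6 libraries, with WT penises in blue, SA tumors in red, the replicate number as the marker shape and the mean of 3 as a bar. Ptgs2 and Hpgds lie higher in every SA tumor, Hpgd, Ptgis and Ptgds lie lower, and the groups overlap for Ptges, Ptges3 and Tbxas1.

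Ptgs2 (NM_011198, chromosome 1, 150100031 to 150108234) encodes the inducible cyclooxygenase. It was at 29.99, 19.3 and 45.7 CPM in SA tumors and at 0.769, 4.01 and 4.01 CPM in WT penises. Every SA tumor lay above every WT penis, and WT replicate 1, with 17 counts, lay well below the other two. The log2 fold change was 3.42 (standard error 0.593, 95% interval 2.00 to 4.85, adjusted p = 0.00308). The call rested on single libraries, since the adjusted p was 0.0110 without SA replicate 1, 0.0165 without WT replicate 2 and 0.0166 without WT replicate 3, with log2 fold changes of 3.46, 3.72 and 3.66. Without WT replicate 1, the log2 fold change was smallest, at 2.97 (adjusted p = 0.00173). Neutrophils, which can express Ptgs2, were read by 6 markers tested, and all 6 rose past both thresholds with a median of 4.72. Retnlg and Mmp8 were at or below the floor of 3 counts in every WT penis. They passed the filter only through the SA tumors, so that a rise was fixed in advance for them. Camp, at a mean of 0.161 CPM in SA tumors and 0.124 CPM in WT penises, was too low to be tested. The summed level of the neutrophil list was 1739, 1427 and 2490 CPM in SA tumors, against 56.7 to 120 CPM in WT penises. S100a8 (734, 582 and 1034 CPM in SA tumors) and S100a9 (976, 803 and 1368 CPM) made up most of this sum. Which cells gave these transcripts was not tested. Among SA tumors both were lowest in replicate 2, as Ptgs2 was. Csf3r (19.1, 28.4 and 63.4 CPM), Cxcr2 (8.14, 9.60 and 18.2 CPM), Retnlg and Mmp8 were instead lowest in SA replicate 1. The part of neutrophils in the level of Ptgs2 was not tested. Among WT penises, replicate 1 was also the lowest for the summed level of immediate-early genes, a list of 8 written after the data were seen, although Junb and Ier2 were lowest in replicate 3. Their summed level was 549 CPM in WT replicate 1, 2381 in replicate 2 and 1025 in replicate 3, and 461 to 552 in the SA tumors. Fos was at 3.71, 519 and 35.5 CPM and Atf3 at 3.30, 76.4 and 80.2 CPM in those WT libraries, against 203, 347 and 170.5 CPM for Junb and 111, 168 and 99.2 CPM for Ier2. Ptgs2 can itself be induced as an early response gene, and the part of such a response in its WT level was not tested.

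Ptgs1 (NM_008969, chromosome 2, 36216742 to 36258593) encodes the constitutive cyclooxygenase. It was at 56.8, 70.4 and 67.0 CPM in SA tumors and at 49.8, 51.1 and 52.7 CPM in WT penises. The groups did not overlap, but the log2 fold change of 0.34 (standard error 0.106, 95% interval 0.10 to 0.58) had an adjusted p of 0.0259 in edgeR's test and missed the threshold. Without SA replicate 1, the lowest of the SA tumors, the adjusted p was 0.00974 and the log2 fold change 0.42. In the annotation, 148 of its 3884 exon bases overlap a gene model on the opposite strand, and the strand setting of the counting is not given in the sources used here.

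On the TPM scale, which corrects for transcript length and so allows genes to be compared within a library, Ptgs1 stayed the more abundant cyclooxygenase in every library. Ptgs2 made up 26.7%, 15.9% and 32.0% of cyclooxygenase TPM in SA tumors and 1.06%, 5.14% and 5.00% in WT penises. The log2 ratio of Ptgs2 to Ptgs1 per transcript length was -1.65 ± 0.679 in SA tumors and -4.98 ± 1.32 in WT penises (n = 3 each, SD), a difference of 3.34 that was 2.57 without WT replicate 1. The 3 SA values all lay above the 3 WT values. A two-sided exact permutation test gave p = 0.10, the smallest that 3 against 3 samples allow, and 0.10 after adjustment over the 3 ratios tested.

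The prostaglandin E synthases did not pass the test. Ptges (NM_022415, chromosome 2, 30889471 to 30931020) encodes the membrane-bound enzyme that is often induced together with Cox2. It was at 78.1, 101 and 109 CPM in SA tumors and at 116, 106 and 101 CPM in WT penises. The groups overlapped, and the log2 fold change of -0.16 had a 95% interval of -0.47 to 0.15 (edgeR adjusted p = 0.350). Its sign turned when library totals were used without TMM, which moved the median of all genes from 0.03 to 0.31. Under that scaling Ptges2 was at -0.14 and missed the threshold as before, and Ptgs1 (0.62) and Ptges3 (0.36) passed it. Ptges2 (NM_133783, chromosome 2, 32395890 to 32402740), a second membrane-associated form, was at 15.1, 16.7 and 15.03 CPM in SA tumors and at 21.1, 20.9 and 20.8 CPM in WT penises. These groups did not overlap, with a log2 fold change of -0.42 (95% interval -0.68 to -0.17), an adjusted p of 0.0123 in edgeR's test and of 0.00424 in DESeq2's. Ptges3 (NM_019766, chromosome 10, 128058982 to 128077254), which encodes p23, a cochaperone of Hsp90 as well as a cytosolic synthase, was at 83.9 to 94.1 CPM in SA tumors and at 81.2 to 87.9 CPM in WT penises. Its log2 fold change was 0.08 (95% interval -0.13 to 0.29, edgeR adjusted p = 0.497).

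The prostaglandin D synthases moved in opposite directions. Hpgds (NM_019455, chromosome 6, 65117293 to 65144981), the hematopoietic form, was at 18.6, 21.1 and 16.6 CPM in SA tumors and at 3.84, 3.10 and 3.64 CPM in WT penises. Each SA tumor lay above each WT penis, with a log2 fold change of 2.41 (adjusted p = 1.17e-05 with a standard error of 0.167), or 5.32-fold. Ptgds (NM_008963, chromosome 2, 25466709 to 25470110), the lipocalin form, was at 0.409, 0.364 and 0.390 CPM in SA tumors and at 5.02, 2.67 and 2.05 CPM in WT penises. The SA values rest on 11, 11 and 48 counts and were close together, while the WT values were spread more widely. The log2 fold change was -3.05 (adjusted p = 0.000344 with a standard error of 0.402), an 8.30-fold lower level in SA tumors.

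By TPM, Hpgds made up 91.7%, 93.4% and 91.2% of the level of both prostaglandin D synthases in SA tumors, and 15.7%, 22.1% and 30.3% in WT penises. Ptgds was the more abundant form in each WT penis, and Hpgds in each SA tumor. The log2 ratio of Ptgds to Hpgds was -3.51 ± 0.219 in SA tumors and 1.82 ± 0.603 in WT penises (n = 3 each, SD), a difference of -5.33 (two-sided exact permutation p = 0.10, adjusted p = 0.10). Mast cells and T cells are known sources of Hpgds. Over the 8 mast cell markers the median was 1.56 on the log2 scale, and 2 of them rose, Kit (1.76) and Hdc (4.60), the latter also expressed by neutrophils. Their summed level was 47.0, 104 and 150 CPM in SA tumors and 31.3 to 48.1 CPM in WT penises, while Hpgds was highest in SA replicate 2 and lowest in replicate 3. Of 6 T cell markers tested, Cd5 and Lck rose, with a median of 1.31. The summed level was 27.9 to 30.5 CPM in SA tumors against 4.37 to 8.23 in WT penises, led by Cd5 (23.9, 21.8 and 14.7 CPM in SA tumors). Cd3e, at 0.632 to 3.00 CPM in SA tumors, missed the threshold, as did Cd3d, Cd3g and Cd2, and the groups overlapped for each of these. The part of these cells in the level of Hpgds was not tested.

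Ptgis (NM_008968, chromosome 2, 167203194 to 167252150), the prostacyclin synthase known from smooth muscle and endothelium, was at 3.16, 9.30 and 9.74 CPM in SA tumors and at 70.7, 62.6 and 63.0 CPM in WT penises. All SA tumors lay below all WT penises, and SA replicate 1 was the lowest. The log2 fold change was -3.12 (adjusted p = 0.000506 with a standard error of 0.383), an 8.69-fold lower level. All 8 smooth muscle markers fell past both thresholds, with a median log2 fold change of -4.60, led in abundance by Myh11 (-5.00), Acta2 (-3.92) and Tagln (-3.63). Their summed level was 36.8, 101 and 129 CPM in SA tumors, again lowest in replicate 1, and 1584 to 2111 CPM in WT penises. Of 8 endothelial markers 4 fell, among them Pecam1 (-0.92), with a median of -0.84 and sums of 183 to 311 CPM against 356 to 415. In bulk tissue, fewer cells of a type and less RNA per cell cannot be told apart, and the part of smooth muscle in the level of Ptgis was not tested. In the annotation, 156 of the 2567 exon bases of Ptgis overlap a noncoding gene on the opposite strand.

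Tbxas1 (NM_011539, chromosome 6, 38864159 to 39084590), the thromboxane synthase of platelets and macrophages, was at 0.557, 2.38 and 1.94 CPM in SA tumors and at 1.49, 1.44 and 1.69 CPM in WT penises. The WT range lay inside the SA range. The log2 fold change was 0.11 (95% interval -0.95 to 1.17, edgeR adjusted p = 0.863), and its sign turned under 4 of 16 alternatives. Macrophage markers were likewise lowest in SA replicate 1, at a summed 123 CPM against 275 and 293 in the other SA tumors and 208 to 282 in WT penises, and 2 of 8 fell, Cd163 and Mertk, with a median of -0.03. Of 4 platelet markers tested, Ppbp rose (4.39) and Gp1bb fell (-1.06), with a median of -0.56 and sums of 85.5 to 118 CPM against 147 to 185. Gp1bb led these sums, at 61.2, 85.9 and 51.6 CPM in SA tumors. Gp9, Gp6, Treml1 and Tubb1 were too low to be tested. The part of macrophages and platelets in the level of Tbxas1 was not tested. An antisense gene model covers 144 of its 9094 exon bases.

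**Figure D2:**
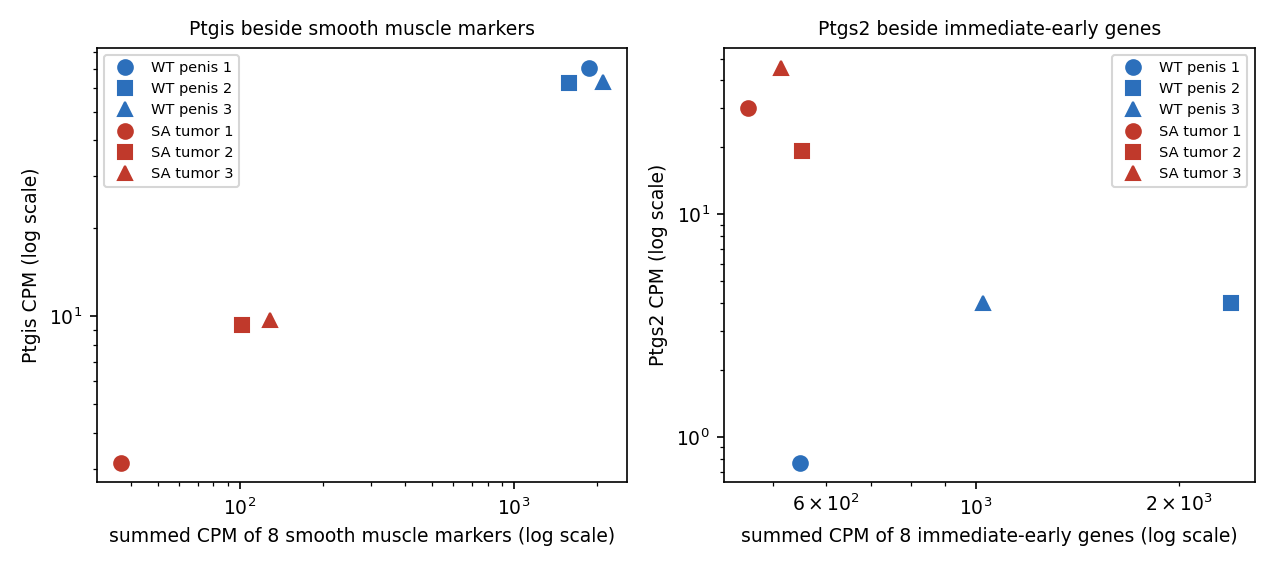
Ptgis against the summed level of 8 smooth muscle markers, and Ptgs2 against that of 8 immediate-early genes, in CPM on log axes, with 1 point for each of the 6 libraries. SA replicate 1 is lowest for both Ptgis (3.16 CPM) and the muscle markers (36.8 CPM). The immediate-early list was written after the data were seen. Among WT penises, replicate 1 is lowest for both Ptgs2 (0.769 CPM) and these genes (549 CPM). WT replicates 2 and 3 have Ptgs2 at 4.01 CPM each, beside sums of 2381 and 1025 CPM. SA tumors have Ptgs2 at 19.3 to 45.7 CPM, beside sums of 461 to 552 CPM.

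Hpgd (NM_008278, chromosome 8, 56294552 to 56321046), which encodes 15-hydroxyprostaglandin dehydrogenase, was at 16.8, 20.3 and 27.5 CPM in SA tumors and at 283, 296 and 275 CPM in WT penises. The groups were far apart, and the spread within each was small beside the gap. The log2 fold change was -3.72 (standard error 0.185, 95% interval -4.14 to -3.29, adjusted p = 2.80e-06), a 13.2-fold lower level in SA tumors. This was the largest change in size among the 10 genes, and 141 of the 16336 genes tested fell further. It stayed between -3.94 and -3.57 when each library was left out in turn, and it also passed a test of whether the change exceeded the fold-change threshold (edgeR glmTreat, adjusted p = 7.07e-05). Of the 8 epithelial markers 4 fell, among them Krt5 (-1.21), Dsp (-1.23) and Krt15 (-3.61), while Epcam rose (2.35). The summed epithelial level was 13035 to 15229 CPM in SA tumors and 26433 to 28143 CPM in WT penises, with a median log2 fold change of -0.65, and its part in the level of Hpgd was not tested.

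The log2 ratio of Ptgs2 to Hpgd per transcript length was -0.77 ± 0.5003 in SA tumors and -8.20 ± 1.35 in WT penises (n = 3 each, SD). The values were -0.43, -1.35 and -0.54 in SA tumors and -9.75, -7.47 and -7.36 in WT penises. The transcripts of Ptgs2 and Hpgd were thus of the same order in SA tumors and far apart in WT penises. Ptgs1, the more abundant cyclooxygenase in every library, is left out of this ratio. It averaged 40.1 TPM beside 22.3 for Hpgd in SA tumors, and 24.5 TPM beside 227 for Hpgd in WT penises. The difference in the log2 ratio of Ptgs2 to Hpgd was 7.42, or 6.64 without WT replicate 1, with a two-sided exact permutation p of 0.10 and an adjusted p of 0.10.

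**Figure D3:**
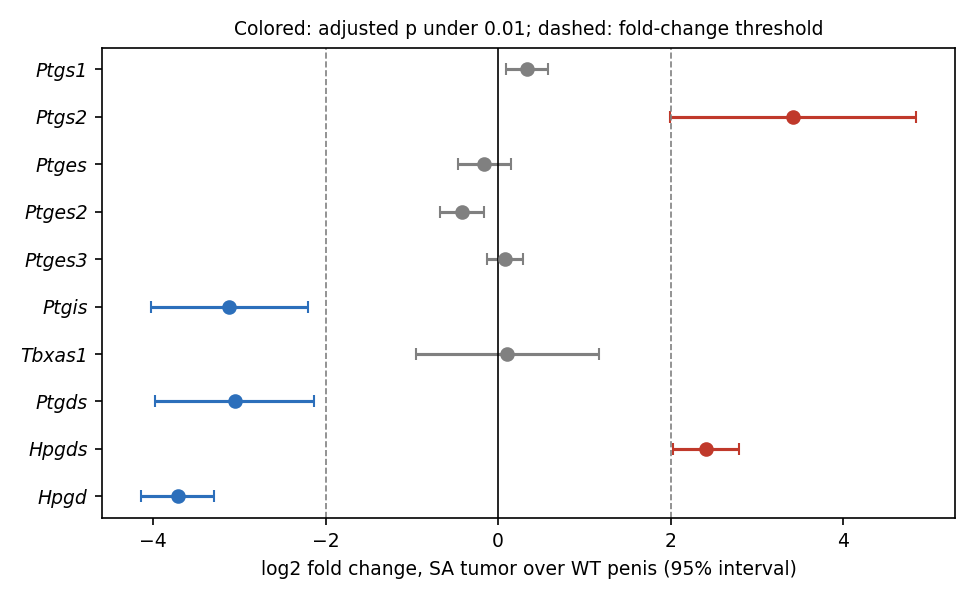
Log2 fold change of SA tumors over WT penises for the 10 genes with 95% intervals from edgeR's fit (n = 3 each), colored where the adjusted p was under 0.01, with dashed lines at the fold-change threshold of 2. Hpgd (-3.72), Ptgis (-3.12) and Ptgds (-3.05) lie on the left, and Ptgs2 (3.42) and Hpgds (2.41) on the right, with Ptgs2 having the widest interval.

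The order of the 10 genes by TPM differed between the groups. In WT penises, Hpgd was the most abundant, at 227 ± 15.2 TPM (SD, n = 3), followed by Ptges3 (59.6), Ptgis (51.2), Ptges (40.3), Ptgs1 (24.5), Ptges2 (14.7), Ptgds (5.43), Hpgds (1.47), Tbxas1 (1.07) and Ptgs2 (0.994). Among genes next to each other in this order, the ranges of Tbxas1 and Ptgs2 overlapped, and the range of Ptgs2 (0.237 to 1.396) also reached that of Hpgds (1.31 to 1.59). In SA tumors, Ptges3 led at 81.4 ± 4.15 TPM (SD, n = 3), before Ptges (46.8), Ptgs1 (40.1), Hpgd (22.3), Ptges2 (14.2), Ptgs2 (13.7), Hpgds (10.1), Ptgis (7.49), Tbxas1 (1.45) and Ptgds (0.855). Here the ranges of neighbors overlapped for Ptges and Ptgs1, from Ptges2 through Ptgs2 and Hpgds to Ptgis, and for Tbxas1 and Ptgds. The TPM values are not adjusted for composition, so that they were compared within libraries and not between groups.

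Among terminal synthases other than Ptges3, Ptges held 57.3%, 55.8% and 60.3% of the summed TPM in SA tumors and 34.9%, 36.0% and 35.1% in WT penises, although its own CPM values overlapped. Ptgis held 4.83%, 10.7% and 11.2% in SA tumors and 44.3%, 44.5% and 45.7% in WT penises. The share of Hpgds was 1.17% to 1.403% in WT penises and 10.1% to 15.1% in SA tumors, and that of Ptgds was 3.23% to 6.84% and 0.911% to 1.36%. Thus the WT profile was shared mainly between Ptges and Ptgis transcripts, and the SA profile was led by Ptges with Ptges2 next, while Hpgds ranked above Ptgis in SA replicates 1 and 2 and below it in replicate 3. These are shares of transcripts, and no prostanoid was measured.

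**Figure D4:**
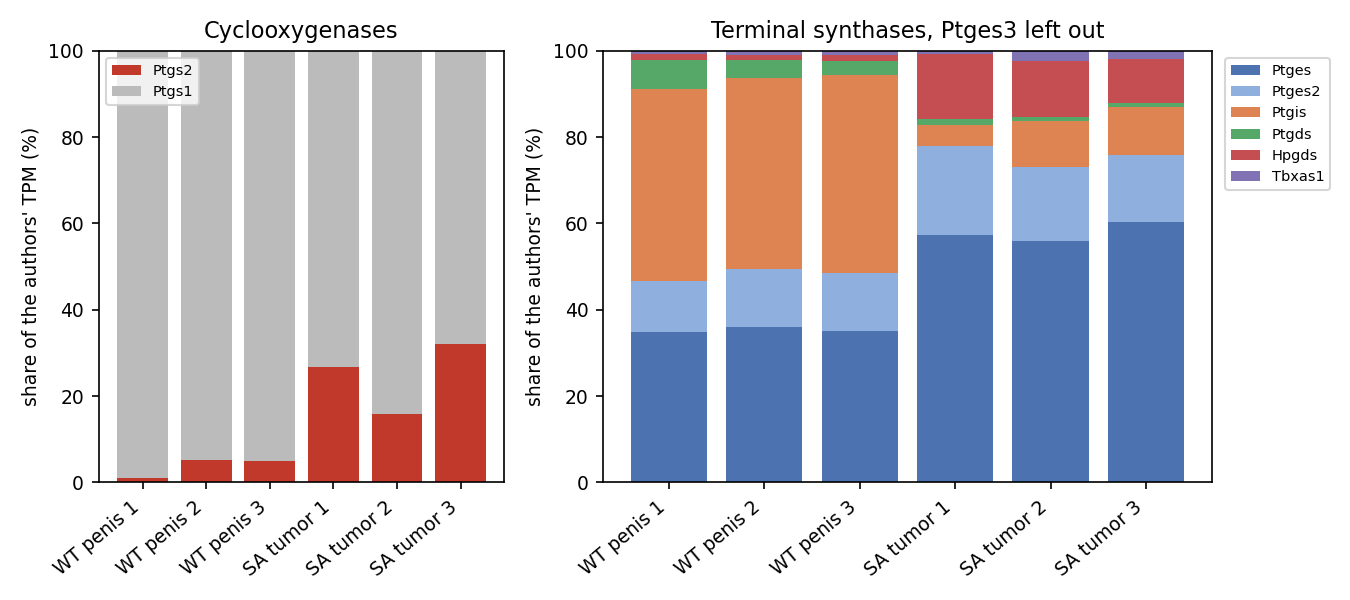
Share in percent of the authors' TPM in each library, for Ptgs2 and Ptgs1 (left) and for 6 terminal synthases without Ptges3 (right). Ptgs2 takes 15.9% to 32.0% in SA tumors and 1.06% to 5.14% in WT penises, and the Ptgis segment of 44.3% to 45.7% in WT penises is 4.83% to 11.2% in SA tumors.

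Other enzymes that convert prostaglandins were given by a list of 11 genes, of which 10 were tested, 4 rose and 1 fell, with a median log2 fold change of 0.13. Ptgr1, which reduces the products of Hpgd, rose from 11.1 ± 2.48 to 54.9 ± 7.45 CPM (n = 3 each, SD), with a log2 fold change of 2.31 (adjusted p = 2.08e-05 with a standard error of 0.180). The aldo-keto reductase gene Akr1c18, which can make prostaglandin F, was at 8.90 ± 3.69 CPM in SA tumors and at 0.0829 ± 0.0478 CPM in WT penises (n = 3 each, SD), at or below the floor of 3 counts in WT (adjusted p = 2.51e-05). Cbr1 (0.71) and Akr1b8 (1.83) rose by less than the fold-change threshold, and Gstm2 fell by 1.49 on the log2 scale.

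Of 11 receptor and transporter genes, 3 rose and 3 fell, none past the fold-change threshold, and the median was 0.90. The changes of largest size were in Abcc4, a prostaglandin exporter, with a log2 fold change of 1.96 (standard error 0.152), and in Ptgfr, the prostaglandin F receptor, with -1.94 (standard error 0.409). Slco2a1, which carries prostaglandins into cells where Hpgd degrades them, fell from 289 ± 19.3 to 137 ± 29.3 CPM (n = 3 each, SD), with a log2 fold change of -1.07 (adjusted p = 0.000555). The receptor gene for prostacyclin, Ptgir, rose (1.17), while its synthase Ptgis fell. The prostaglandin D receptor gene Ptgdr rose as well (1.46), and the E receptor gene Ptger3 fell (-1.21).

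Of 15 phospholipase genes that can release arachidonic acid, 8 rose and 4 fell, with a median of 1.02. Past both thresholds, Pla2g4e rose from 1.64 ± 0.286 to 82.5 ± 11.1 CPM (n = 3 each, SD). Pla2g2a and Pla2g10 rose to 41.7 ± 8.11 and 6.63 ± 3.25 CPM (n = 3 each, SD) from WT levels at or below the floor of 3 counts in every library. The strain background of the WT mice may differ from that of the SA mice. The part of strain background in the low WT level of Pla2g2a was not tested. Pla2g3 (-2.96), Pla2g2d (-2.66) and Plb1 (-2.51) fell. Pla2g4f, the most abundant gene of the list, fell by less than the fold-change threshold (-1.54). It went from 171 ± 3.92 to 58.7 ± 6.65 CPM (n = 3 each, SD). The summed level of the list was 425 to 506 CPM in SA tumors and 407 to 424 CPM in WT penises. Pla2g4a, the cytosolic enzyme most often tied to cyclooxygenases, rose from 8.41 ± 1.26 to 15.3 ± 2.22 CPM (n = 3 each, SD), with a log2 fold change of 0.86 (adjusted p = 0.00301).

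**Figure D5:**
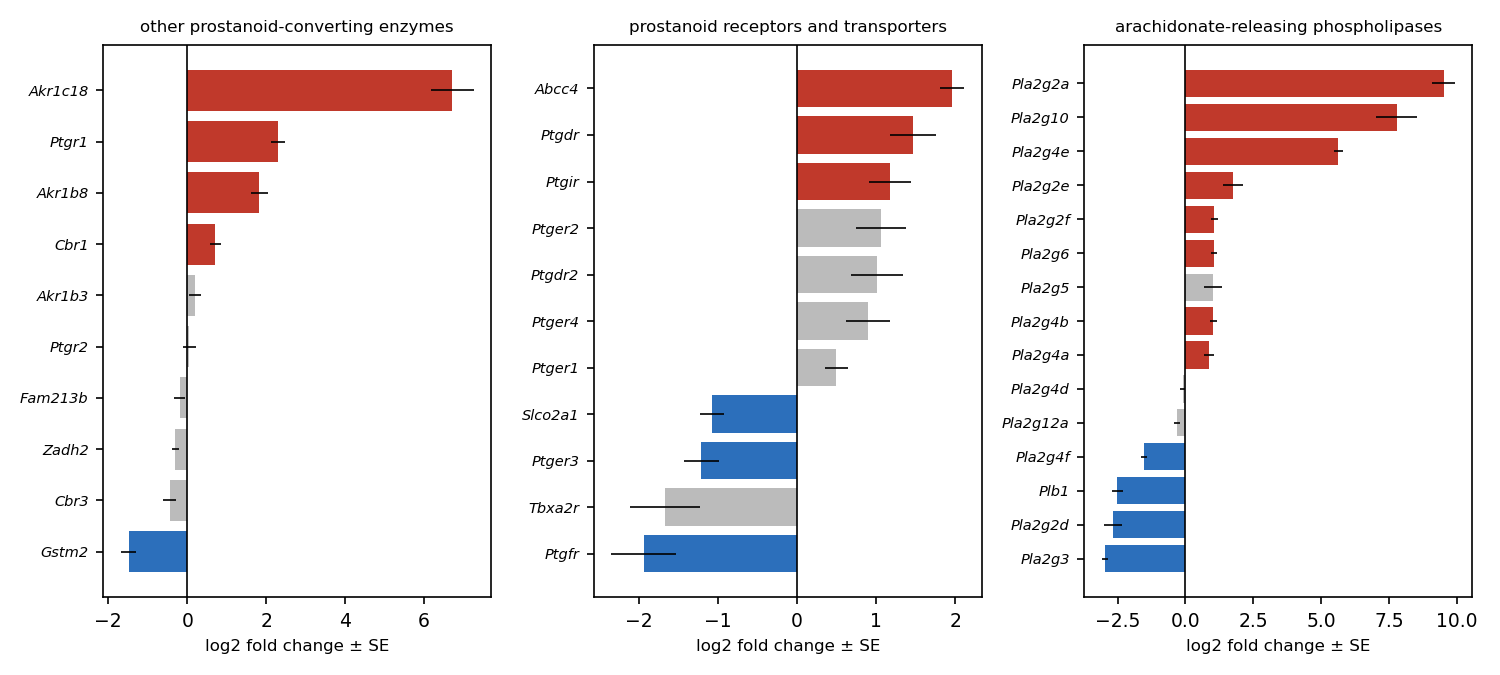
Log2 fold change of SA tumors over WT penises with standard errors for the tested genes of 3 lists, colored where the adjusted p was under 0.01 (red higher, blue lower, grey not called). Akr1c18 and Ptgr1 lead the first panel, Abcc4 (1.96) and Ptgfr (-1.94) mark the ends of the second, and the third runs from Pla2g3 to Pla2g2a.

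Markers of the remaining cell types were read the same way. Of 8 fibroblast markers 1 fell, Dcn (-1.80), and their sum was 1376, 3888 and 5008 CPM in SA tumors against 6293 to 6596 CPM, with a median of -0.56. SA replicate 1 was thus lowest of all libraries for fibroblast, smooth muscle, endothelial, macrophage and platelet sums, as it was for Ptgis, Tbxas1, Hpgd and Ptges. Gp1bb, which led the platelet sum, was instead lowest in SA replicate 3. Without SA replicate 1, the log2 fold changes were -2.78 for Ptgis and -3.57 for Hpgd, and both stayed past the thresholds. Of the 6 adipocyte genes, Adipoq, Plin1, Lep and Cidec were too low to be tested in any group, while Fabp4, which other cells also express, rose by 5.11 on the log2 scale. Among the 8 immediate-early genes, Ier2 fell (-0.83), and the median was -2.04.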

How the data were processed

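RNA was measured in 6 samples, grouped by their titles into SA tumors and WT penises. Raw counts for each RefSeq transcript were deposited, made by the authors with Tophat on mm10 and HTSeq (versions not given in the sources used here). The deposited TPM and FPKM values were derived by the authors from these counts. TPM was used only to compare genes within a library, and FPKM only to read transcript lengths.

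The row with the highest mean count represented each symbol. The tests used edgeR 4.0.16 (R 4.3.3), keeping 16336 genes by filterByExpr (minimum 10 counts, 0.38 CPM in at least 3 samples, total of 15), with TMM and the robust quasi-likelihood F-test. P-values were Benjamini-Hochberg adjusted over all genes tested, with thresholds of 0.01 and a log2 fold change of 2 in size. Standard errors were the fold change over the square root of F. Ratios used a pseudocount of 0.5 counts and a two-sided exact permutation test. The test was checked on simulated data. Alternatives included DESeq2 1.42.0.

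The genes and lists were chosen with earlier results of these data known. Named genes are the 10 enzymes, pathway genes past both thresholds or with the 2 largest changes, and up to 3 abundant markers of each cell type. Beyond this rule, genes that passed the test are named for their role or abundance, as are the markers chosen after their values were seen. Symbols were matched to RefSeq names of GRCm38.p6, which gave Emr1 for Adgre1. Ly6g, Trac and Trbc2 were not analysed here.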

Additional observations from a re-analysis of the deposited data

How the results depend on the processing

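Of 160 values of single enzymes under 16 alternatives, 142 kept their direction and their side of the threshold. Ptgs2 and Hpgds were the 2 enzymes that rose at an adjusted p of 0.01, with or without the fold-change threshold. By either rule, keeping all genes whatever their counts gave 1, and blocking by replicate number gave 1. The test glmTreat of edgeR, which asks whether a change exceeds the fold-change threshold, gave 0. The number ranged from 1 to 2 when each library was left out. By the adjusted p, the share of all genes that rose was 16.3% without the filter, 17.2% under the block and 4.58% in glmTreat. It was 14.2% to 19.6% when each library was left out. Without SA replicate 1, Ptgs1 passed by the adjusted p and Ptgs2 did not. The number was 4 by the adjusted p when library totals were used without TMM, through Ptgs1 (log2 fold change 0.62) and Ptges3 (0.36), while the higher calls among all genes went from 3283 (20.1%) to 5248 (32.1%) and the lower from 2865 (17.5%) to 1806 (11.1%). In glmTreat, Hpgds and Ptgs2 had adjusted p-values of 0.0503 and 0.0806, and DESeq2 called 2 higher, against 23.2% of all genes. The enzyme lost without the filter and under the block was Ptgs2, with adjusted p-values of 0.0105 and 0.0115, and over all its alternatives its adjusted p ran from 1.19e-05 (DESeq2) to 0.0806 (glmTreat). The 3 enzymes that fell became 1, Hpgd, in glmTreat, against 1.1% of all genes, and Ptgis and Ptgds had adjusted p-values of 0.0299 and 0.0408 there. In DESeq2 they were 4 by the adjusted p alone, through Ptges2, against 21.2% of all genes. They stayed 3 under the remaining alternatives at an adjusted p of 0.01, leaving out each library included, against 11.1% to 17.9% of all genes. The cause of these changes was not tested.

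The sign of Tbxas1 turned with the replicate block (-0.0576), with the deepest library thinned to 25016259 counts (-0.00927), and without SA replicate 2 (-0.22) or 3 (-0.04), over a range of -0.22 to 0.48 when each library was left out, and that of Ptges turned with library totals only (0.13). The 3 ratios were tried under 8 alternatives, namely summed transcript rows, a pseudocount of 2 counts and each library left out. Summed rows changed nothing, since each enzyme had 1 transcript, and the larger pseudocount kept the direction. Leaving out a library could not turn it, since the groups did not overlap. The differences then ran from 2.57 to 3.73 for Ptgs2 to Ptgs1, 6.64 to 7.84 for Ptgs2 to Hpgd and -5.63 to -5.02 for Ptgds to Hpgds. The smallest difference of each was without WT replicate 1. The replicate numbers were not treated as pairs, since no source ties an SA mouse to a WT mouse. Deviations of same-numbered samples correlated at -0.135 to 0.0238 across genes, and 1 of 6 samples correlated best with its own number. Ptgds (11 counts in 2 libraries) and Tbxas1 (15 counts in 1) are the values that depth limits most.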
